A study of Solanum lycopersicum with 14 samples.

Results

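The genes described here came on strongly during ripening of red tomato fruit and, in the yellow-fruited mutant at 47 and 60 days of fruit age, stood far below the level that red fruit had at 47 days. They number 158 of the 34725 genes listed for the pericarp, the flesh of the fruit, in tomato (Solanum lycopersicum). Ages are in DPA, in this field days post anthesis. The mutant n3122, in the M82 background, was sampled at 35, 47, 54 and 60 DPA. Its wild type, the red-fruited cultivar M82, was sampled at 35, 47 and 54 DPA. Each of the 7 groups had 2 libraries and all plants were grown in a greenhouse. The labels call n3122 a mutant without naming the mutated gene or an agent, and leave unsaid whether both libraries of a group are from different plants, so the authors' p-values may measure a technical spread. The authors deposited 1 FPKM value per gene and group (fragments per kilobase of transcript, scaled to the fragments sequenced), so no value carries an SD and the depth of the libraries is unknown. A q-value below is the authors' own, and a gene is called where it was at or under 0.05. Fold changes are log2((n3122 + 1) / (M82 + 1)) of the FPKM values, and the added 1 FPKM understates changes of low genes.

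The 158 genes were chosen by their measured values. They had at least 20 FPKM in M82 at 47 DPA, at least 4 times the M82 level of 35 DPA, and at most 0.25 times the M82 level of 47 DPA in n3122 at both 47 and 60 DPA, with 1 FPKM added throughout. These values are therefore a description. In M82, 522 genes met the conditions on the level and the rise. Of these, 158 (30.3%) are the genes described here, 152 were as low in n3122 at 47 DPA but not at 60 DPA, and 212 were not as low at 47 DPA. Close to the limits, the members nearest inside the limit at 60 DPA had ratios of 0.2499 and 0.2499 and the genes nearest outside it 0.254 and 0.259. Around the limit at 47 DPA the ratios were 0.239 and 0.233 inside and 0.263 and 0.266 outside. The smallest rises inside were 4.001 and 4.12 times and the largest outside 3.98 and 3.95 times, while the lowest levels inside were 20.3 and 21.0 FPKM and the highest outside 19.998 and 18.0 FPKM. The limit at 60 DPA thus passes through a dense range: 32 of the 158 members lay between 0.2 and 0.25 there, 53 between 0.1 and 0.2, 28 between 0.05 and 0.1, and 45 at or under 0.05.

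Tomato is a climacteric fruit, in which a burst of the hormone ethylene starts and carries on ripening. Ethylene binds receptors that otherwise repress the response, the signal passes through the membrane protein EIN2 to transcription factors of the EIN3 family, and F-box proteins of the EBF type limit those factors. Ripening then brings softening of the cell wall, loss of chlorophyll, and the synthesis of lycopene, the red carotenoid, from geranylgeranyl diphosphate by way of phytoene. EIN2 itself is not among the 158 genes. It had 3.75, 2.50, 2.91 and 1.95 FPKM in n3122 at 35, 47, 54 and 60 DPA, against 48.9, 35.0 and 40.8 FPKM in M82 at 35, 47 and 54 DPA.

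The files name genes by identifier only, and 18 of the 158 could be given a name. Each name is a pair of symbol and identifier known from tomato genetics. It was accepted where the reference annotation has a gene of that name or synonym on that chromosome, with relative places in gene order at most 5% apart. Close neighbours cannot be told apart in this way. For E8 and NR the reference gene was reached by another name. The gene matched to E8 has the reference symbol ACO3, and the gene matched to ACO3 has the symbol EFE, so these names differ between sources. The other 140 genes are given by identifier or by counts.

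As a whole the 158 genes were closer in level between the genotypes at 35 DPA, where n3122 had the lower median, than afterwards. Their median was 2.72 FPKM in n3122 and 4.02 FPKM in M82 at 35 DPA, 4.92 and 106 FPKM at 47 DPA, and 6.47 and 79.9 FPKM at 54 DPA. In n3122 at 60 DPA the median was 7.61 FPKM. Together the members took 0.186%, 0.188%, 0.260% and 0.488% of the summed FPKM in n3122 at 35, 47, 54 and 60 DPA, against 0.182%, 4.78% and 3.53% in M82 at 35, 47 and 54 DPA. The separation at 47 and 60 DPA is set by the choice of genes, whereas the 54 DPA groups and n3122 at 35 DPA played no part in it. The M82 level of 35 DPA was part of the choice, so the closeness at that age is a description. In RNA from whole tissue, fewer cells of a type and less RNA per cell cannot be told apart. Of the cuticle and epidermis genes listed as markers of another cell type of the pericarp, 4 could be named. Their summed level was 633, 170.0, 165 and 195 FPKM in n3122 at 35, 47, 54 and 60 DPA, against 424, 119.5 and 145 FPKM in M82 at 35, 47 and 54 DPA. SHN3 was listed at 0 in M82 at 47 DPA and above 0 in the other groups, and no other marker was at 0 in any group. CD1, the cutin synthase gene, had 447, 42.0, 18.1 and 5.67 FPKM in n3122, against 289, 0.484 and 0.448 FPKM in M82. The other markers did not all fall with age. CD2 had 32.9, 35.7, 49.4 and 52.4 FPKM in n3122, against 27.8, 29.3 and 29.2 FPKM in M82. CER6 had 143, 89.1, 93.6 and 136 FPKM in n3122, against 98.5, 89.7 and 114 FPKM in M82. SHN3 had 10.2, 3.18, 4.12 and 0.722 FPKM in n3122, against 8.73, 0 and 0.492 FPKM in M82. The part of such cells in the results was not tested.

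**Figure D1:**
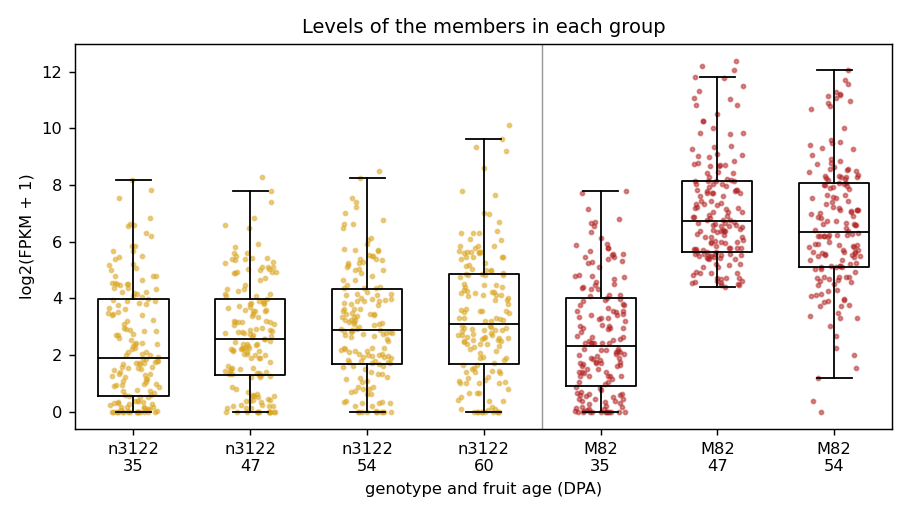
Level of each of the 158 members as log2(FPKM + 1) in the 4 n3122 groups (yellow) and the 3 M82 groups (red), by fruit age in DPA. Points are genes, boxes span the quartiles with the median as a line, and whiskers reach the farthest gene within 1.5 times the box height. The M82 groups at 47 and 54 DPA stand above all others, with medians of 106 and 79.9 FPKM, and the n3122 medians lie between 2.72 and 7.61 FPKM.

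The comparison that the choice of genes did not use is that of n3122 with M82 at 54 DPA. Of 156 members tested there, 140 (89.7%) were called lower in n3122 in the authors' deposited table and 1 was called higher. Over all 18796 genes tested in that table, 11.5% were called lower and 18.1% higher. The median log2 fold change of the members was -3.33, with quartiles at -4.97 and -1.96, against -0.02 over all genes tested. The ratio of n3122 to M82 was at or under 0.25 for 115 of the 158 genes at 54 DPA, and for 109 of the 134 that had at least 20 FPKM in M82 then. Among all genes with at least 20 FPKM in M82 at 54 DPA the share at or under that ratio was 3.8%. For 120 members the q-value stood at 0.000377, the smallest the authors' deposited table holds, so these genes cannot be ranked by it.

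For comparison, the genes that were as low at 47 DPA but not at 60 DPA had a median log2 fold change of -2.27 at 54 DPA, and 133 of 152 tested (87.5%) were called lower. Of those that were not as low at 47 DPA, 138 of 209 tested (66.0%) were called lower, with a median of -1.03. The comparisons at 47 and at 60 DPA share their M82 libraries, and the 54 DPA comparison shares none with them. In the comparisons that chose the genes, 145 of 157 tested members were called lower at 47 DPA, where 9.81% of all genes were, and 142 of 158 at 60 DPA against M82 at 47 DPA, where 7.07% of all genes were. No member was called higher in either, where 13.7% and 7.93% of all genes were. Nothing is read from these counts.

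**Figure D2:**
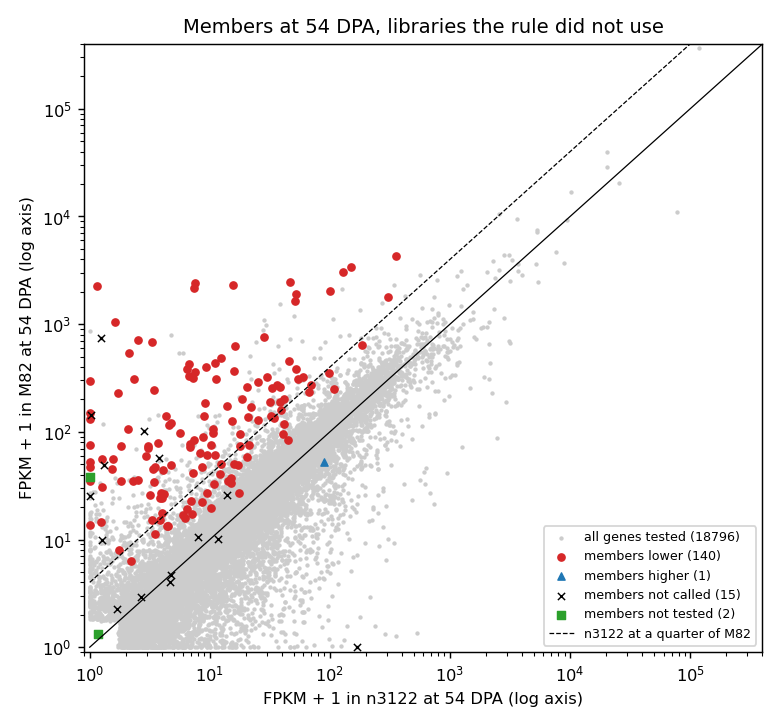
FPKM + 1 of each gene in n3122 (horizontal) and M82 (vertical) at 54 DPA, both on log axes, for all 18796 genes tested (grey) and for the members by their call in the authors' deposited table. The solid line marks equal levels and the dashed line an n3122 level of 0.25 times that of M82; the 140 members called lower lie above the solid line and 115 of all 158 members lie on or above the dashed one.

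Among ethylene perception and signalling genes the members were 2 receptors and an F-box gene. NR, also called ETR3, the receptor gene of the Never-ripe mutant, had 16.8, 29.1, 32.0 and 41.2 FPKM in n3122 at 35, 47, 54 and 60 DPA, against 19.1, 279.7 and 257 FPKM in M82 at 35, 47 and 54 DPA. ETR4, another receptor gene, had 31.3, 55.9, 66.4 and 49.4 FPKM in n3122, against 40.8, 299 and 236 FPKM in M82. EBF1, the F-box gene, had 17.6, 31.3, 37.5 and 21.1 FPKM in n3122, against 37.0, 159 and 189.6 FPKM in M82. All 3 were called lower at 54 DPA in the authors' deposited table, with log2 fold changes of -2.97, -1.81 and -2.31. For each of them the highest n3122 group stayed below both M82 groups of 47 and 54 DPA. No other gene of this list of 13 met the conditions on level and rise in M82, so every named signalling gene that came on in M82 by that rule was a member. This depends on the limit: ETR6 rose 3.93 times, just short of it, and its ratio at 47 DPA was 0.298, above 0.25. Over the whole list, 8 of 13 tested were called lower and 1 higher at 54 DPA, and the 3 members are among the 8. Over all genes tested at 54 DPA, 11.5% were called lower and 18.1% higher. List counts, here and below, include any members, which were chosen for low n3122 levels. They are a description, and no list was tested as a set.

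Ethylene synthesis gave 1 member. ACO3, one of several genes for the oxidase that makes ethylene, had 2.27, 4.03, 3.43 and 4.25 FPKM in n3122, against 4.42, 35.5 and 12.4 FPKM in M82. It is a low member, and its log2 fold change at 54 DPA was -1.60. The synthase genes ACS2 and ACS4, which make the precursor of ethylene, met the condition at 47 DPA but not that at 60 DPA, where their ratios to M82 at 47 DPA were 0.278 and 1.42. ACO1 and ACS1A were not low enough at 47 DPA, with ratios of 0.341 and 0.811. Of 10 synthesis genes tested, 3 were called lower and 6 higher at 54 DPA.

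CNR and the ethylene-responsive genes E4 and E8 were the members among 15 named ripening regulators and responsive genes. CNR, an SBP-box regulator whose epimutation blocks ripening, had 35.1, 37.0, 35.3 and 56.8 FPKM in n3122, against 38.0, 262 and 269 FPKM in M82. It stayed within 2 FPKM across the first 3 n3122 ages, far below its M82 levels of 47 and 54 DPA. E4, a methionine sulfoxide reductase gene, had 22.6, 33.8, 45.6 and 48.2 FPKM in n3122, against 112, 4672 and 2477 FPKM in M82. E8, a dioxygenase gene, had 73.5, 219, 356 and 1112 FPKM in n3122, against 100.3, 5258 and 4274 FPKM in M82. E4 was thus below its own M82 level of 35 DPA in every n3122 group, whereas E8 at 60 DPA stood at 0.220 times its M82 level of 47 DPA. Their log2 fold changes at 54 DPA were -2.89 for CNR, -5.73 for E4 and -3.58 for E8.

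Regulators known to act upstream of ripening were mostly outside the set, as were most of the 522 genes that came on in M82, of which 30.3% were members. RIN, NOR, AP2A, ERF6 and DML2 came on in M82 and were low in n3122 at 47 DPA, but at 60 DPA their ratios to M82 at 47 DPA were 0.517, 0.466, 0.319, 0.281 and 0.760. The member CNR had 0.229, not far below ERF6. In that comparison RIN, NOR, AP2A and ERF6 were still called lower, and DML2 was not called. RIN, a MADS-box gene required for ripening, had 2.66, 7.23, 28.3 and 364 FPKM in n3122, against 2.26, 733 and 977 FPKM in M82. FUL1 and ERF2 also came on in M82 and were not low enough at 47 DPA, with ratios of 0.426 and 0.605. At 60 DPA the ratio was 0.422 for FUL1 and 0.239 for ERF2, which was thus under the limit at the later age. Both were called lower there. At 54 DPA, 10 of the 15 listed genes were called lower and none higher.

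Softening gave 4 members of a list of 12, and XTH9 was added to them after its values were seen. PL, a pectate lyase gene whose product cuts pectin, had 3.61, 4.21, 6.399 and 36.9 FPKM in n3122, against 3.69, 1832 and 2166 FPKM in M82. PG2A, the fruit polygalacturonase gene, had 0.306, 14.9, 28.9 and 794 FPKM in n3122, against 1.63, 3598 and 320.1 FPKM in M82. The high groups of these 2 genes differ: PL was high in M82 at both late ages, whereas PG2A in n3122 at 60 DPA stood above M82 at 54 DPA. CEL2, an endoglucanase gene, had 3.05, 1.66, 1.14 and 6.31 FPKM in n3122, against 2.62, 265 and 537 FPKM in M82. TBG4, a beta-galactosidase gene, had 26.6, 16.8, 19.8 and 48.1 FPKM in n3122, against 19.4, 208 and 137 FPKM in M82. XTH9, a gene for an enzyme that cuts and rejoins xyloglucan, had 1.34, 16.9, 17.5 and 5.66 FPKM in n3122, against 1.39, 196 and 202 FPKM in M82. The log2 fold changes at 54 DPA were -8.19 for PL, -7.98 for CEL2, -3.45 for XTH9, -3.43 for PG2A and -2.73 for TBG4, all called lower. EXP1, the ripening expansin gene, and MAN4, an endo-mannanase gene, met the condition at 47 DPA but not that at 60 DPA, where their ratios were 0.468 and 1.55. EXP1 was also called lower at 54 DPA (-4.56), and MAN4 was not called there. XTH5, another xyloglucan enzyme gene, was not low enough at 47 DPA, at 0.371. Of the 12 listed genes, 7 were called lower and 4 higher at 54 DPA.

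Of 19 named carotenoid genes, 3 were members, and they lie on the way to lycopene. Other genes of that route were not members. PDS, ZDS and CRTISO rose 2.02, 2.10 and 2.75 times in M82, short of the condition on the rise. In n3122 at 60 DPA they stood at 0.982, 0.674 and 0.774 times their M82 level of 47 DPA, and none was called there. PSY1, the fruit phytoene synthase gene, had 113, 88.0, 129 and 644 FPKM in n3122, against 143, 4270.2 and 3034 FPKM in M82. Z-ISO, the zeta-carotene isomerase gene, had 41.0, 38.4, 50.7 and 79.0 FPKM in n3122, against 39.4, 2172 and 1898 FPKM in M82. GGPS2, a geranylgeranyl diphosphate synthase gene, had 0.939, 1.71, 3.08 and 8.14 FPKM in n3122, against 1.68, 92.3 and 42.8 FPKM in M82. Their log2 fold changes at 54 DPA were -4.55, -5.20 and -3.42, all called lower. In n3122 at 60 DPA, Z-ISO stood at 0.0383 times its M82 level of 47 DPA, GGPS2 at 0.102 times and PSY1 at 0.157 times. One other listed gene, CYP707A2, which acts in the breakdown of abscisic acid, came on in M82 but was not low enough at 47 DPA, at a ratio of 0.392. At 60 DPA its ratio was 0.0893, under the limit. Of 18 listed carotenoid genes tested at 54 DPA, 6 were called lower and 4 higher.

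Other named members belong to flavonoid, amine and defence-related metabolism. CHS1, a chalcone synthase gene at the entry to flavonoids, had 1.52, 0.195, 0.554 and 27.6 FPKM in n3122, against 3.37, 339 and 54.8 FPKM in M82. HDC, a histidine decarboxylase gene, had 0.298, 0.371, 0.154 and 0.290 FPKM in n3122, against 0.987, 2539 and 2242.5 FPKM in M82. HDC was thus under 1 FPKM in each n3122 group and among the most abundant members in M82. NP24, an osmotin-like gene named after its values were seen, had 19.8, 42.4, 98.9 and 199.8 FPKM in n3122, against 53.3, 909 and 2024 FPKM in M82. The log2 fold changes at 54 DPA were -10.92 for HDC, -5.16 for CHS1 and -4.34 for NP24, and HDC had a q-value, as the authors' deposited table gives it, of 0.0216. Of 6 flavonoid and phenylpropanoid genes 3 were called lower at 54 DPA and none higher, and of 14 tested genes of aroma, sugar and amino acid metabolism 7 were called lower and 5 higher. LOXB, LOXC, AAT1 and TIV1, of that second list, met the condition at 47 DPA and missed it at 60 DPA, with ratios between 0.581 and 0.729, and all 4 were called lower at 54 DPA. In the flavonoid list CHS2 missed the condition at 60 DPA, at 0.435, and 4CL that at 47 DPA, at 0.423. SGR1, which acts in chlorophyll breakdown and was the only gene of its list that could be named, was not a member, at a ratio of 0.273 at 47 DPA. It was called lower at 54 DPA. Of the 4 cuticle and epidermis genes none was a member, none was called lower and 2 were called higher at 54 DPA.

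**Figure D3:**
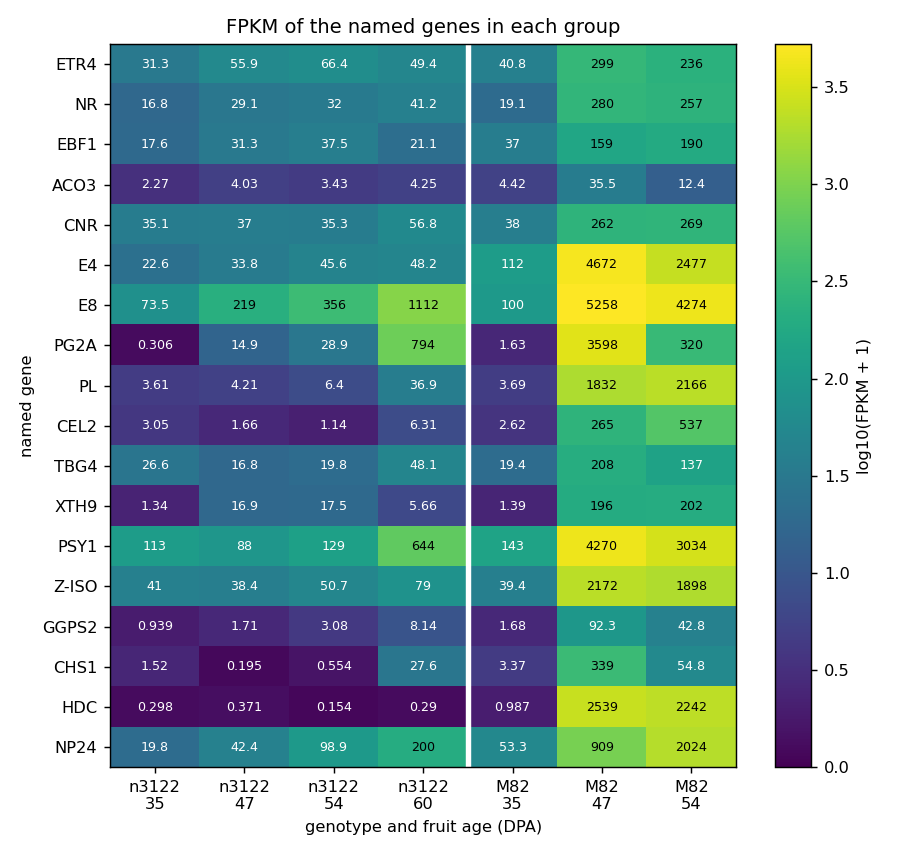
FPKM of the 18 named members (rows) in the n3122 groups of 35, 47, 54 and 60 DPA and the M82 groups of 35, 47 and 54 DPA (columns), coloured by log10(FPKM + 1) with the FPKM printed in each cell. In M82 the columns of 47 and 54 DPA are bright, and in n3122 the cells that stand out at 60 DPA are E8 at 1112, PG2A at 794, PSY1 at 644 and NP24 at 199.8 FPKM.

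Among members called at 54 DPA and without a name, Solyc12g088220 had the lowest log2 fold change, with 0.609 FPKM in n3122 and 1042 FPKM in M82 at 54 DPA (-9.34). The next was Solyc01g088400, with 6.56 FPKM in n3122 and 2402.5 FPKM in M82 (-8.31). Solyc01g088400 was also lower at each later n3122 age, with 49.5, 7.29, 6.56 and 2.28 FPKM at 35, 47, 54 and 60 DPA, while M82 had 49.98, 3504 and 2402.5 FPKM. At the other end, Solyc06g069420 had 16.6 FPKM in n3122 and 26.0 FPKM in M82 (-0.62). Solyc01g102960 was the single member called higher, with 88.8 FPKM in n3122 and 51.0 FPKM in M82 (0.79).

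Members that no longer stood high in M82 make up a part of those not called lower at 54 DPA. In M82 at 54 DPA, 12 of the 158 genes were under 2 times their level of 35 DPA. Of these 12, 4 were called lower, 1 was called higher, 6 were not called and 1 was not tested. Of the 146 others, 136 were called lower, 9 were not called and 1 was not tested. An example is Solyc10g080840, with 14.4, 13.6, 10.8 and 17.2 FPKM in n3122, against 10.1, 144 and 9.03 FPKM in M82, high in a single group. Solyc07g025490 had 224, 40.2, 168 and 42.7 FPKM in n3122, against 0, 223 and 0 FPKM in M82. A listing at 0 beside values of this size can be a failed estimate, so no fold is given for it, and the authors' deposited table gives it 0.0893 as q-value at 54 DPA.

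The course of the members in M82 between 47 and 54 DPA was mixed. The M82 levels of 35 and 47 DPA chose the members, low at the first age and high at the second, so the counts of M82 changes are a description and nothing is read from their size beside that of all genes. By fold alone, 104 were within 2 times of their 47 DPA level at 54 DPA, 45 were at least 2 times lower and 9 at least 2 times higher; over all genes with at least 1 FPKM in either group, 4.65% were that much lower and 3.77% that much higher. CEL2 and NP24 were among the 9, and all 9 were called lower in n3122 at 54 DPA, with a median log2 fold change of -5.42. Of the 45, PG2A, CHS1, ACO3 and GGPS2 among them, 34 were called lower and 1 higher, with a median of -1.70. The 104 others had 97 called lower and a median of -3.60. Relative to M82 at 35 DPA, 146 of the 158 genes still had at least 2 times the level at 54 DPA and 128 at least 4 times. Of all genes with at least 1 FPKM in either group, 12.1% and 4.49% did. From 47 to 54 DPA 1 member reached at least 4 times its level, against 0.691% of all genes with at least 1 FPKM in either group. Ages were set side by side across tables that the authors scaled separately, and no age difference was tested.

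In n3122 most members stood near their 35 DPA level at 54 DPA, 2 groups that the choice did not use. The median log2 change was 0.45, with quartiles at 0.00 and 1.22, against -0.04 over all genes with at least 1 FPKM in either group. The shares of all genes in this paragraph are over those genes, while no such minimum was put on the members in n3122. At least 2 times the 35 DPA level was reached by 55 of the 158 members at 54 DPA, against 8.94% of all genes, and at least 4 times by 16, against 2.62%. Of the others, 94 were within 2 times and 9 at least 2 times lower, where 8.21% of all genes were that much lower. The added 1 FPKM damps changes of members near 0, and 17 were listed at 0 in n3122 at 35 DPA. With 0.1 FPKM added in the rule and the changes, the median was 0.73. PG2A, XTH9, NP24 and E8 were among the 16, while HDC, CNR, PSY1 and Z-ISO were within 2 times. Over the same span M82 had a median log2 change of 3.94. Genes that were as low at 47 DPA but not at 60 DPA had a median change of 1.04 in n3122, and those that were not as low at 47 DPA had 1.80.

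From 54 to 60 DPA the members in n3122 went in both directions. At least 2 times higher at 60 DPA were 40 of the 158 genes, against 3.11% of all genes with at least 1 FPKM in either group. At least 2 times lower were 22, against 7.26%. At least 4 times higher were 16, against 0.759%. The 60 DPA values were capped by the choice, so these counts are a description. PG2A had the second largest log2 change, 4.73, after Solyc04g074840, which had 0, 0.158, 1.54 and 103 FPKM in n3122 at 35, 47, 54 and 60 DPA, against 0.370, 1045 and 715 FPKM in M82. CHS1 followed with 4.202, and PL, PSY1, CEL2, E8, TBG4, GGPS2 and NP24 had changes between 1.01 and 2.36. The receptor and F-box genes ETR4 and EBF1 had changes of -0.42 and -0.80 and NR of 0.35, and XTH9, at -1.48, was the named gene at least 2 times lower. Set against n3122 at 35 DPA, 61 members were at least 2 times and 33 at least 4 times higher at 60 DPA. Of all genes with at least 1 FPKM in either group, 7.2% and 2.17% were. At 60 DPA, 39 members were below their own n3122 level of 35 DPA.

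How far the oldest mutant fruit lay behind depends on which M82 age it is set against. Against M82 at 54 DPA, across tables scaled separately, the median log2 ratio of n3122 at 60 DPA was -2.92, and 43 of the 158 members were above 0.25 times the M82 level. Of these, 21 were above 0.5 times, and 6 were above the M82 level itself: PG2A and 5 genes without a name, all at least 2 times lower in M82 at 54 than at 47 DPA. The named members CHS1, ACO3, TBG4 and E8 were also among the 43, and CHS1 among the 21.

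**Figure D4:**
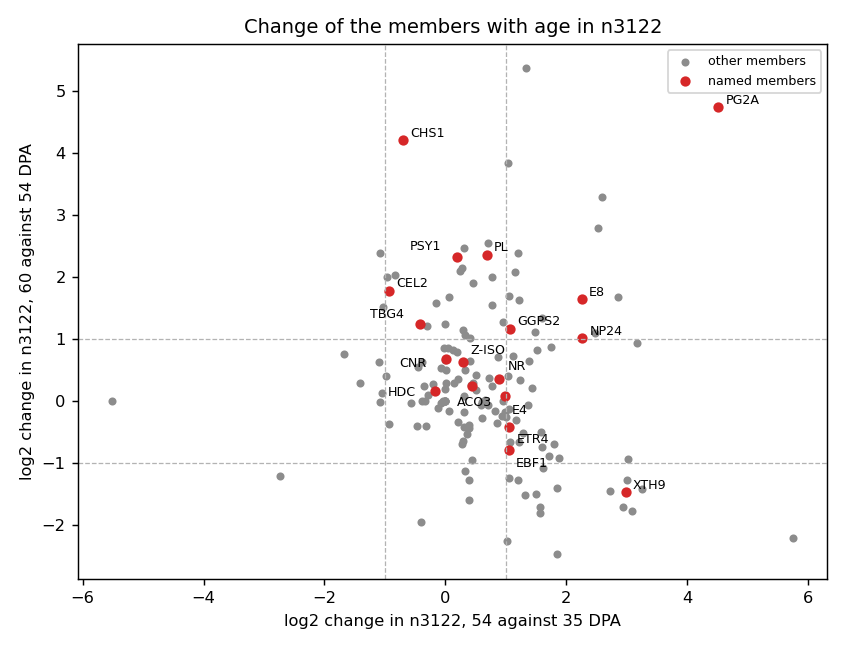
Change of each member in n3122, as log2 of FPKM + 1, between 35 and 54 DPA (horizontal) and between 54 and 60 DPA (vertical). Red points are the 18 named members, grey points the others, and dashed lines mark a change of 2 times; PG2A (4.52 and 4.73) stands at the upper right, XTH9 (2.98 and -1.48) at the lower right, and HDC, CNR, NR, ACO3 and Z-ISO lie near the centre.

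At 35 DPA most members tested were not called different between the genotypes. Of 115 tested, 11 (9.57%) were called lower and 1 higher in n3122 in the authors' deposited table, where 1.33% of all genes tested were called lower and 1.91% higher. The M82 values of 35 DPA were part of the choice, so these counts are a description. The median log2 fold change was -0.17, against -0.01 over all genes tested. E4 had the largest difference among those called lower, at 22.6 FPKM in n3122 and 112 FPKM in M82 (-2.26). Solyc01g107400 had 1.25 FPKM in n3122 and 6.75 FPKM in M82 (-1.78), and Solyc04g064870 had 2.65 FPKM in n3122 and 7.37 FPKM in M82 (-1.20). The smallest difference among those called lower was that of Solyc09g082860, with 26.9 FPKM in n3122 and 43.3 FPKM in M82 (-0.67). NP24 (-1.39) and EBF1 (-1.03) were also called lower, and for both the authors' deposited table gives 0.00325, its smallest q-value at this age. Solyc01g100760, with 94.3 FPKM in n3122 and 58.7 FPKM in M82 (0.67), was the one called higher. In the genes that were as low at 47 DPA but not at 60 DPA, 2 of 141 tested were called lower and 8 higher at 35 DPA. In those that were not as low at 47 DPA, 22 of 204 tested (10.8%) were called lower and 13 higher. The share called lower at 35 DPA was thus not particular to the members.

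Some members were hardly detected in the mutant at any age. Below 1 FPKM in each of the 4 n3122 groups were 16 members, HDC among them. Solyc02g072370, Solyc02g077790, Solyc03g095880 and Solyc03g112170, named after their values were seen, were listed at 0 in all 4 groups, against 51.6, 74.3, 24.3 and 131 FPKM in M82 at 54 DPA. Of these 4, Solyc03g095880 was not called at 54 DPA, its q-value being 0.0893 in the authors' deposited table, and the other 3 were called lower. No fold is given against a listing at 0.

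The members were spread over all 12 chromosomes, by the chromosome number in the gene identifier, with 1 more under the number 0. Chromosomes 2, 1 and 3 held 20, 18 and 18 of them, and chromosome 5 the fewest, with 6. Chromosome 2 held 12.7% of the members and 10.8% of all genes tested, and chromosome 9 held 10.8% and 7.03%. In the other direction, chromosome 5 held 3.80% of the members and 6.58% of tested genes, and chromosome 6 held 5.06% and 8.68%. In 10 places, members lay beside one another, with identifier numbers at most 50 apart, 23 genes in all. That is 14.6% of the members, against 31.8% of all 522 genes that came on in M82, and sets of unequal size are not alike in this measure. PL and E4 share one of these places on chromosome 3 with Solyc03g111730, which had 2.38 FPKM in n3122 and 44.2 FPKM in M82 at 54 DPA. HDC shares another with Solyc08g066250 and Solyc08g066260 on chromosome 8, which had 0.0249 and 0 FPKM in n3122 and 144 and 45.7 FPKM in M82 at 54 DPA; the first of these was not called. Which of these 3 neighbours the name HDC belongs to rests on the known pair of symbol and identifier. Reads of neighbouring copies of a gene may be shared among them, so values within such a place are less certain.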

How the data were processed

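Total RNA of fruit pericarp was sequenced in 14 libraries, 2 for each of 7 groups. CASAVA, TopHat2 version 2.0 and Cufflinks were used, per the submitters' processing notes; genome build and annotation: not given in the sources used here. All 4 deposited tables hold 1 FPKM value per gene and group, a test statistic (a score of the authors, 0 with a p-value of 1 for untested genes), a p-value and a q-value, per the file headers. M82 at 47 DPA stands in 2 tables at a median ratio of 0.960, so the tables were scaled separately. Tables were joined by gene identifier without its version. With no values per replicate, no test was run here: calls are the authors' q-values at or under 0.05, read beside the same share over all genes. Directions come from the FPKM columns. The code of the rule and of the calls was run on simulated data with planted genes and q-values set in advance, which checks the code only.

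The members, lists and tests were chosen with earlier results of these data known. Named are all listed genes that were members and passed the place check (assembly SLM_r2.1), and listed non-members that came on in M82 (7 regulators, against at most 4 a list planned). PDS, ZDS and CRTISO, which fell short of the condition on the rise, were named after their values were seen. Of 122 listed genes 97 passed, 22 had a symbol the reference lacks and 3 lay on another chromosome; 2 of the 122, NP24 and XTH9, were added after the members were seen. Without a name, the 2 lowest and 2 highest called members at 54 DPA were named, likewise at 35 DPA, and any others as examples chosen after their values were seen. The alternatives were the pseudocount, the limits and minimum level of the rule, centring, genes at 0, duplicate values and stricter calls. Python 3.11.15 with pandas 2.3.3 was used. No sequence is printed, since no sequence table was used here.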

Additional observations from a re-analysis of the deposited data

Results flagged for a closer look

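Solyc01g102960, lower in n3122 at 47 DPA with 29.8 FPKM against 420 FPKM in M82, was called in the opposite direction at 54 DPA, with a log2 fold change of 0.79 (88.8 FPKM in n3122 and 51.0 FPKM in M82). Solyc01g100760, also called lower at 47 DPA, was called higher at 35 DPA, with a log2 fold change of 0.67 (94.3 FPKM in n3122 and 58.7 FPKM in M82). In both genes the opposite calls of the authors at different ages drew attention. The difference between ages was not tested, and each group has a single value.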

How the results depend on the processing

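Of 87 values recomputed under other settings, 69 kept their direction and stayed within 1.5 times of the reported value and 18 moved further. Log2 medians were compared as folds, and no value changed sign. Counting genes with the same FPKM values once removed none of the 158 members. The values of that setting, all among the 69, could therefore not differ. On the log2 scale the n3122 median of 54 against 35 DPA ran between 0.30 and 0.73 and the 35 DPA median between -0.22 and -0.09. With limits of 8 times for both the rise and the shortfall, the rule found 68 genes, 57 of them called lower at 54 DPA and 63 at or under 0.25 times M82, with a median log2 fold change of -4.89 and an M82 change from 35 to 54 DPA of 4.87; at 35 DPA 3 were called lower and 0 higher. With limits of 2 times for both it found 420 genes, 355 called lower at 54 DPA and 192 at or under 0.25 times M82, with medians of -1.83 and 2.53; at 35 DPA 24 were called lower and 7 higher. The limits themselves set how many genes are admitted; the cause of the shifts in the medians was not tested. Under these limits 86.4% and 85.1% of tested genes were called lower at 54 DPA. At 35 DPA a q-value at or under 0.01 left 5 called lower and 0 higher, a minimum log2 fold change of 1 left 0 higher, and so did M82 at 54 DPA as the level for n3122 at 60 DPA, an alternative chosen after seeing the data, under which 115 of the 158 members and 9 other genes met the rule. Without the 24 members listed at 0 in some group, 124 of 133 tested were called lower at 54 DPA. No replicate could be left out and no paired analysis was possible because the files give 1 value per group. The depth is unknown, so low values, such as those of HDC in n3122, carry no interval.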
